A study of Mus musculus with 12 samples.

Results

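The translational efficiency of each gene within epiblast-like cells (EpiLCs) is described here, as the ratio of ribosome protected footprints (RPFs) to total RNA. Genes were included when they reached 3 or more CPM (a gene's count scaled by the sum of all counts in its library) in 3 or more of the 6 EpiLC libraries, which kept 11139 of the 22462 genes in the deposited table. EpiLCs stand for the epiblast just after implantation. They were made from mouse embryonic stem cells (ESCs), and for its differentiation experiments the study's methods list a single line, a V6.5 derivative carrying mCherry and GFP reporters of microRNA clusters. The ESCs grew in medium with serum, LIF and the 2i inhibitors PD0325901 and CHIR99021, and LIF and 2i were withdrawn about 56 hours before the EpiLCs were harvested. There were 3 EpiLC RPF and 3 EpiLC total RNA libraries, and 3 of each kind from ESCs kept in LIF and 2i, which are used only for comparison. The labels give no genetic difference between the groups. The study calls the replicates of this experiment biological. Neither its methods nor the labels say whether libraries of one group came from separate cultures. The p-values therefore measure the spread between these libraries, which may be technical.

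In ribosome profiling, nuclease removes the mRNA that ribosomes do not cover, and the protected pieces are sequenced beside RNA that was not selected for ribosomes. Reads of both assays grow in number with the length of the counted sequence. A gene with a high ratio therefore carries many ribosomes per length of coding sequence, which is not the number of ribosomes on each mRNA. Ribosome load is set mainly by how often ribosomes start, and slow elongation or pausing raises it as well. Sequence before the start codon is known to matter. Upstream start codons take ribosomes away from the main reading frame, a pyrimidine tract at the cap (the TOP motif of ribosomal protein mRNAs) links initiation to growth signals, and an iron-responsive element blocks initiation when iron is low.

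The 6 EpiLC libraries held 2681439 to 5413144 counts in RPF and 6188838 to 14655015 in total RNA, so RPF values of low genes were the less precise. The epiblast markers Otx2, Fgf5, Dnmt3b, Dnmt3a, Pou3f1 and Pou5f1 summed to 2271 to 2511 CPM in EpiLC total RNA. In ESC total RNA they summed to 1711 to 1871 CPM. Pou5f1 was lower in EpiLCs (903 to 1068 CPM) than in ESCs (1538 to 1667 CPM). Each of the others was higher, such as Dnmt3b (1003 to 1107 against 99.5 to 182.9 CPM) and Otx2 (44.8 to 52.9 against 4.38 to 7.83 CPM). The 6 naive markers summed to 50.1 to 96.1 CPM in EpiLCs, against 1607 to 1809 CPM in ESCs. Marker sums of other cell types were low in EpiLC total RNA, with 8.98 to 12.1 CPM for 5 fibroblast genes, 2.45 to 3.39 for 4 primitive endoderm genes, 5.25 to 7.92 for 3 trophoblast genes, 2.45 to 5.39 for 3 mesoderm genes and 19.2 to 22.2 for 2 neural genes. The ESC sums were lower for fibroblast (1.98 to 2.26 CPM) and trophoblast genes (1.205 to 1.653 CPM). They were also lower for mesoderm (0.348 to 1.04 CPM) and neural genes (9.55 to 14.4 CPM). Sums of primitive endoderm genes overlapped, at 2.35 to 3.18 CPM in ESCs. Whether other cells in the EpiLC cultures raised these sums was not tested. Postn, Afp and Elf5 had 0 counts in every EpiLC total RNA library. The samples were bulk, so fewer cells of a type and less RNA per cell cannot be told apart.

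A log2 ratio of 0 marks the average gene after scaling, and the median over the 11139 genes was -0.01. The ratio is relative, since neither assay counts molecules per cell. By limma, with a Benjamini-Hochberg adjusted p below 0.05 and an absolute log2 ratio above 1, 1049 genes (9.42%) were higher and 1603 genes (14.4%) were lower in RPF than in total RNA. Both directions together made 2652 genes, or 23.8%. The median standard error of a gene was 0.15 on the log2 scale. In the same replicate number, the gene at the 75th percentile of the ratio was 2.28-fold ± 0.08 (SD, n = 3) above the gene at the 25th percentile, and the gene at the 99th percentile was 28.0-fold ± 4.4 above the gene at the 1st percentile. The filter admitted 104 genes through RPF alone and 209 through total RNA alone, and 278 of these were called. A gene admitted through 1 assay had to differ between the assays. At 3 CPM in all 6 libraries stood 9980 genes, of which 863 (8.65%) were higher and 1218 (12.2%) lower. CPM values of the assays did not overlap for 3509 genes with RPF above (31.5%) and for 4215 genes with RPF below (37.8%).

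Gene classes were compared by the median log2 ratio of their members minus the median of all genes tested. In the plot of 32 gene classes, 20 lay above all genes and 12 below. Immediate early and short-lived mRNAs stood highest, with histones, cholesterol and glycolysis enzymes, RNA processing factors and mitochondrial proteins after them. Ribosomal proteins, polyamine genes and zinc finger proteins stood lowest.

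**Figure D1:**
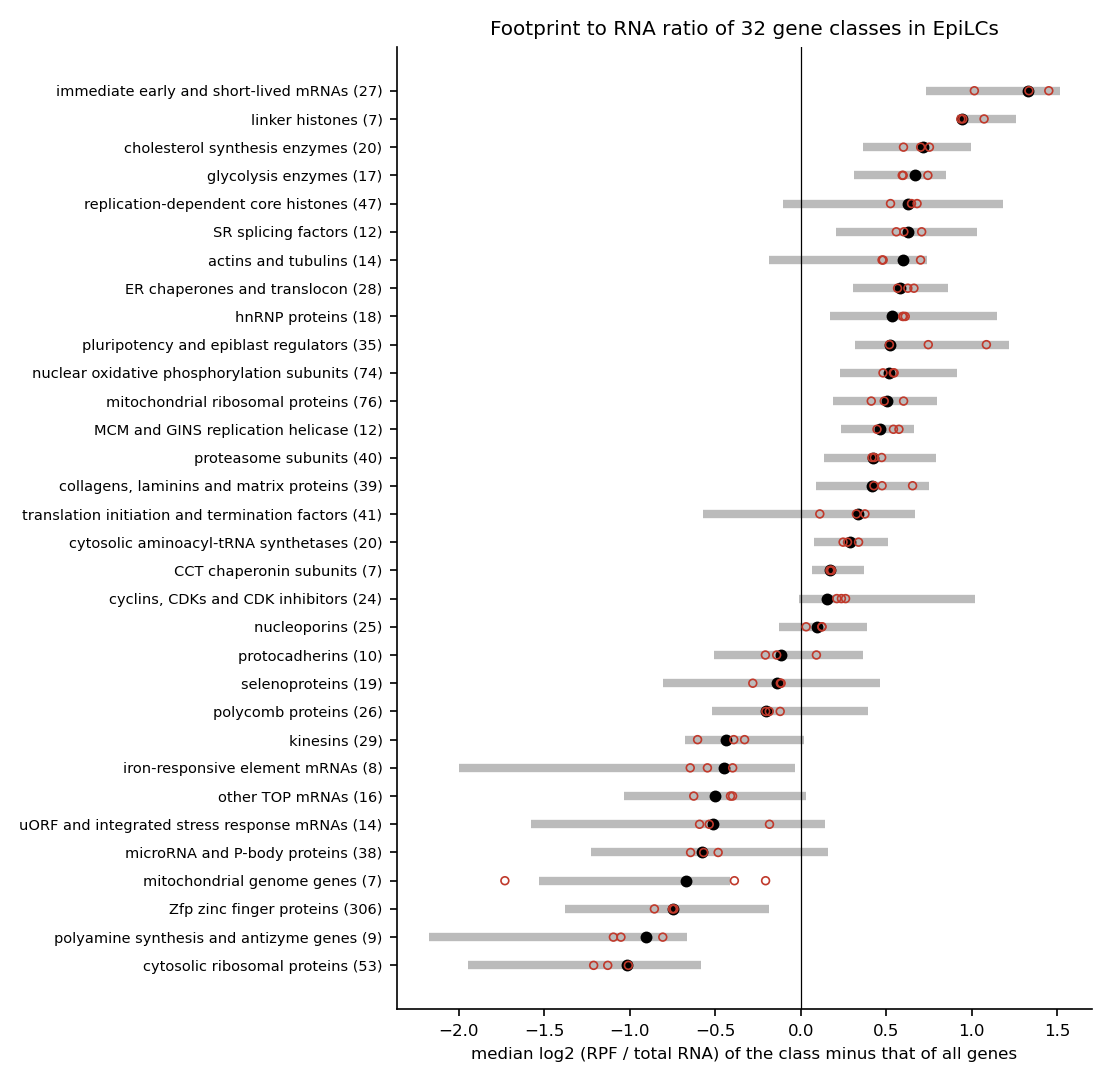
Median log2 ratio of RPF to total RNA in 32 gene classes, minus the median of all 11139 genes (x axis), with the number of genes kept in brackets. Black points are the fitted medians, red circles the 3 replicate numbers, and grey bars run from the 25th to the 75th percentile of the members. Immediate early genes lie at 1.33 and cytosolic ribosomal proteins at -1.01, and the circles of most classes lie close together, while those of the mitochondrial genome run from -1.73 to -0.21.

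Among called genes with a mean of at least 10 CPM, the 10 highest ratios belonged to genes of unlike function. Dlgap1, Cp and Foxe1 were among the genes that the filter admitted through RPF alone, so a high ratio was fixed by the filter and their values are a description with no test. Dlgap1 (chromosome 17, 70516067 to 70818234, mm10, coding exons), which encodes a scaffold protein of synapses, had 921, 831 and 1195 CPM in RPF replicates 1 to 3 and 1.77, 0.485 and 1.63 CPM in total RNA. Its RPF lay far above its total RNA in every library, with a log2 ratio of 9.57 ± 0.46 (SE), although total RNA replicate 2 held only 3 counts. This ratio of 763-fold stood far outside the 28.0-fold between the 99th and the 1st percentile gene. Whether its footprint reads came from ribosomes on this mRNA was not tested. Cp, the plasma copper protein ceruloplasmin, had 0 counts in all 3 total RNA libraries and 73.1, 6.71 and 3.69 CPM in RPF. Against a floor of 3 counts per library (a mean of 0.346 CPM) its RPF was at least 80.3-fold higher, and at least 15.0-fold higher without RPF replicate 1, which held most of it. Foxe1, a forkhead transcription factor, also varied between RPF libraries, at 20.2, 45.1 and 3.33 CPM, against 0.485 to 1.17 CPM in total RNA (log2 ratio 3.94 ± 0.88). With each library left out in turn, the log2 ratio of Foxe1 ran from 3.4 to 5.17.

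Marcks (chromosome 10, 37136108 to 37138490), a substrate of protein kinase C at the plasma membrane, had 298, 304 and 114 CPM in RPF against 16.9, 19.6 and 15.7 CPM in total RNA, a log2 ratio of 3.66 ± 0.30 (limma adjusted p 2.4e-10). RPF replicate 3 was the low one, and it was still above every total RNA library. Cited2, a coactivator that responds to hypoxia, reached 2.87 ± 0.14, with 75.4 to 85.5 CPM in RPF and 9.91 to 12.1 CPM in total RNA. Also among the 10 highest were 2610001J05Rik (3.01), the nucleosome-binding protein Hmgn5 (3.01), the histone Hist1h2af (2.80) and the surface glycoprotein Thy1 (2.74). Thy1 is also one of the fibroblast markers above, with 2.10 to 3.28 CPM in total RNA, and the part of other cells in its ratio was not tested.

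Of the 30 immediate early and short-lived mRNAs, which encode factors that cells induce within minutes and whose transcripts decay fast, 27 passed the filter. In 16 of them the ratio was higher and in 0 lower, against 9.42% and 14.4% of all genes, and the class median was 1.33 above that of all genes (SD 0.23 over replicate numbers, n = 3). Among the 24 members with 3 CPM in all 6 libraries, 14 were higher and 0 lower. Zfp36, which binds AU-rich elements and promotes mRNA decay, had 46.3, 41.8 and 30.9 CPM in RPF and 5.87, 8.73 and 5.25 CPM in total RNA. Its RPF values lay above all its total RNA values, with a log2 ratio of 2.68 ± 0.21 (limma adjusted p 1.04e-10). Myc, the growth-promoting transcription factor, had 80.9, 89.5 and 89.2 CPM in RPF and 21.2, 24.4 and 12.2 CPM in total RNA, a log2 ratio of 2.27 ± 0.16. Egr1 (2.49), Klf2 (1.71), Id3 (1.66), Ier2 (1.63), Dusp1 (1.48), Id1 (1.44) and Jun (1.35) were among the other members called. Jund, the lowest with a mean of at least 10 CPM, had 134 to 174 CPM in RPF and 127 to 145 CPM in total RNA and did not pass the fold limit (0.24 ± 0.09). Fos, Fosb and Fosl1 did not pass the filter.

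Regulators of pluripotency and of the epiblast had 12 of 35 kept genes higher and 0 lower, against 9.42% and 14.4% of all genes. The class median was 0.52 above all genes. The replicate numbers gave 0.75, 1.09 and 0.52, so the size of this difference varied, and without RPF replicate 3 the fitted median was 0.90. Klf5, a factor of self-renewal, led with 80.3, 51.8 and 63.2 CPM in RPF against 14.6, 12.1 and 9.21 CPM in total RNA (2.48 ± 0.18, limma adjusted p 1.74e-11). Sox3 (2.24), Utf1 (1.90), Dppa2 (1.84) and Foxd3 (1.69) followed. Nanog had 398, 334 and 382 CPM in RPF and 178, 164 and 166 CPM in total RNA, without overlap, and its log2 ratio was 1.19 ± 0.08. Otx2, which directs enhancer use in EpiLCs, had 94.8, 99.6 and 110 CPM in RPF and 52.9, 48.3 and 44.8 CPM in total RNA (1.11 ± 0.11). Pou5f1 stood near the average gene, with 1011 to 1174 CPM in RPF and 903 to 1068 CPM in total RNA (0.18 ± 0.07), and the assays overlapped. Sox2 (0.51 ± 0.14), the DNA methyltransferase Dnmt3b (0.43 ± 0.07) and the signalling factor Fgf5 (0.11 ± 0.18, limma adjusted p 0.604) did not pass the thresholds either. Lin28b, which blocks let-7 maturation, was lowest at -0.84 ± 0.16, also within the fold limit.

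Cell cycle genes were split. In the list of cyclins, CDKs and CDK inhibitors, 6 of 24 were higher and 1 was lower, with a median of 0.15. Of all genes 9.42% were higher and 14.4% lower. Ccnd1, cyclin D1, had 384, 386 and 423 CPM in RPF and 113, 96.9 and 100 CPM in total RNA (1.98 ± 0.08, limma adjusted p 1.13e-15). Ccnd2 (1.58), Cdk1 (1.18) and the inhibitors Cdkn1c (1.88), Cdkn1a (1.80) and Cdkn2a (1.77) were also higher. Ccng1, cyclin G1, a target of p53, was the exception. It had 32.2, 32.1 and 37.9 CPM in RPF against 238, 264 and 258 CPM in total RNA, a log2 ratio of -2.82 ± 0.12 (limma adjusted p 2.81e-15). The MCM and GINS proteins that form the replicative helicase had no member past the fold limit, but 12 of 12 lay above the median gene, from Gins3 at 0.07 to Mcm3 at 0.88. Among linker histones, 3 of 7 were higher, against the same 9.42% of all genes, namely H1fx (1.52), H1f0 (1.38) and Hist1h1e (1.12). Their class median was 0.95. Hist1h1c was the lowest of the 7, at 0.30 ± 0.07.

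Splicing factors of both large families lay above all genes, with medians of 0.63 for 12 SR proteins and 0.53 for 18 hnRNP proteins. Of the SR proteins 3 were higher and 2 lower, against 9.42% and 14.4% of all genes. In the hnRNP family 6 were higher and 0 lower, with Hnrnpul1 lowest at -0.61 ± 0.07 and not called. The higher ones were led by Hnrnpa0 with 745, 863 and 413 CPM in RPF and 147, 144 and 134 CPM in total RNA (2.2 ± 0.16). Srsf2, which binds exonic enhancers, had 919, 1019 and 582 CPM in RPF and 198, 178 and 182 CPM in total RNA, a log2 ratio of 2.15 ± 0.13 (limma adjusted p 7.68e-13). RPF replicate 3 was the lowest of its assay for both genes, and for both it exceeded every total RNA library. Srsf3 lay on the opposite side, with 22.7, 23.5 and 24.8 CPM in RPF and 71, 88.1 and 79.3 CPM in total RNA (-1.66 ± 0.15). Srsf10 was the other lower one (-1.21). Srsf3 and Srsf10 share most of their coding sequence with other annotated genes, a measure that is taken up with the ribosomal proteins.

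Metabolic and organelle genes had medians above all genes by smaller amounts, and their counts stand against 9.42% of all genes higher and 14.4% lower. Of 20 cholesterol synthesis genes 5 were higher and 0 lower (median 0.72), among them Nsdhl (1.39), Dhcr7 (1.29), Mvd (1.12) and Ebp (1.01), and the lowest was Mvk at -0.81 ± 0.17, within the fold limit. Of 74 nuclear genes for oxidative phosphorylation 15 were higher and 2 lower (median 0.52). Uqcrq, a subunit of complex III, led them with 159, 134 and 156 CPM in RPF and 28.5, 35.7 and 20.6 CPM in total RNA (2.52 ± 0.13), and Uqcrb, of the same complex, was the lowest with a mean of at least 10 CPM, at -2.05. Mitochondrial ribosomal proteins had 13 of 76 higher and 1 lower (median 0.51), with Mrps34 at 1.76 and Mrpl30 at -2.31. Proteasome subunits had 7 of 40 higher and 1 lower (median 0.42), with Psmb3 highest at 2.22, while Psmb5, the lowest at a mean of at least 10 CPM, stood at -0.95 ± 0.14 and was not called. The ER chaperone calreticulin, Calr, had 2531, 2691 and 2795 CPM in RPF and 983, 965 and 988 CPM in total RNA, so its RPF stood well clear of its total RNA (1.5 ± 0.05, limma adjusted p 1.59e-16). It was one of 3 higher and 2 lower genes among 28 of the ER chaperones and translocon (median 0.58), of which Sec61b, a subunit of the translocon channel, had -1.85. The share of 29-mers repeated in other genes was 89.7% in Uqcrb, 48.0% in Mrpl30, 83.7% in Psmb3, 78.8% in Psmb5 and 84.9% in Sec61b. With at most 5% repeated, 9 of 42 oxidative phosphorylation genes, 12 of 51 mitochondrial ribosomal proteins, 5 of 26 proteasome subunits and 2 of 24 ER genes were higher. In each of these sets 0 were lower. Of all genes with at most 5% repeated, 9.17% were higher and 13.1% lower. The share of higher ER genes was near that of all genes, in this set and in the full class (10.7%). Matrix proteins had 4 of 39 higher and 2 lower, shares near or below those of all genes (median 0.42), with Sparc highest at 1.83 ± 0.08 and Lama3 at -0.47 ± 0.19. Among the 34 matrix genes with 3 CPM in all 6 libraries, 4 were higher and 0 lower. Cytosolic aminoacyl-tRNA synthetases had only Wars called, at 1.13, with Qars lowest at -0.18 and a median of 0.29 over 20 genes. The 7 subunits of the CCT chaperonin, which folds actin and tubulin, were all within the fold limit, between -0.10 for Cct4 and 0.45 for Cct7, and so were 25 nucleoporins, between -0.81 for Nup153 and 0.64 for Rae1.

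Genes of the microRNA pathway and of P-bodies, where repressed mRNAs gather, were low as a class. Of 38 kept genes 14 were lower and 0 higher, against 14.4% and 9.42% of all genes, and the median was -0.58 (SD 0.08, n = 3). The lower genes included the microRNA processing enzymes Dicer1 (-1.47) and Drosha (-1.09), the Dicer cofactor Tarbp2 (-1.34, with 79.4% of its 29-mers repeated in other genes), the Argonaute proteins Ago1 (-1.25), Ago2 (-1.09) and Ago4 (-1.67), and their partners Tnrc6a (-1.56) and Tnrc6c (-1.28). Ago2, the Argonaute that can cut its target, had 112, 119 and 129 CPM in RPF and 287, 233 and 271 CPM in total RNA, without overlap. The CCR4-NOT deadenylase split by subunit. Its scaffold Cnot1 had 454, 439 and 444 CPM in RPF against 1880, 2057 and 1945 CPM in total RNA (-2.08 ± 0.06, limma adjusted p 8.09e-18). Its catalytic subunits Cnot6l (-2.09), Cnot6 (-2.04) and Cnot7 (-2.03) were as low, whereas Cnot3 (0.79), Cnot11 (0.75) and Cnot9 (0.44) lay above 0 and within the fold limit. The decapping proteins Edc3 (0.78), Dcp1a (0.68) and Dcp2 (-0.68) were not called. Ddx6, the P-body helicase, had 204 to 215 CPM in RPF and 219 to 234 CPM in total RNA, a log2 ratio of -0.06 ± 0.07 (limma adjusted p 0.509). Dgcr8, which binds the hairpins that Drosha cuts, stood at -0.61 ± 0.11, within the fold limit.

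Zinc finger proteins of the Zfp series, most of them DNA-binding repressors, made the largest class below all genes. Of 306 kept genes 125 were lower and 3 higher, against 14.4% and 9.42% of all genes, with a median of -0.74 (SD 0.06, n = 3). The filter admitted 34 of them through 1 assay alone. Among the 232 with 3 CPM in all 6 libraries, 73 were lower and 2 higher, against 12.2% and 8.65% of genes at that level, with a median of -0.56. Zfp329 was the lowest with a mean of at least 10 CPM, at 4.75, 1.86 and 3.33 CPM in RPF and 33.7, 35.4 and 38.5 CPM in total RNA (-3.32 ± 0.31, limma adjusted p 1.5e-09). The 3 higher genes were Zfp36, Zfp580 (2.07) and Zfp414. Zfp36 is a CCCH protein that binds RNA, unlike most of the class.

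**Figure D2:**
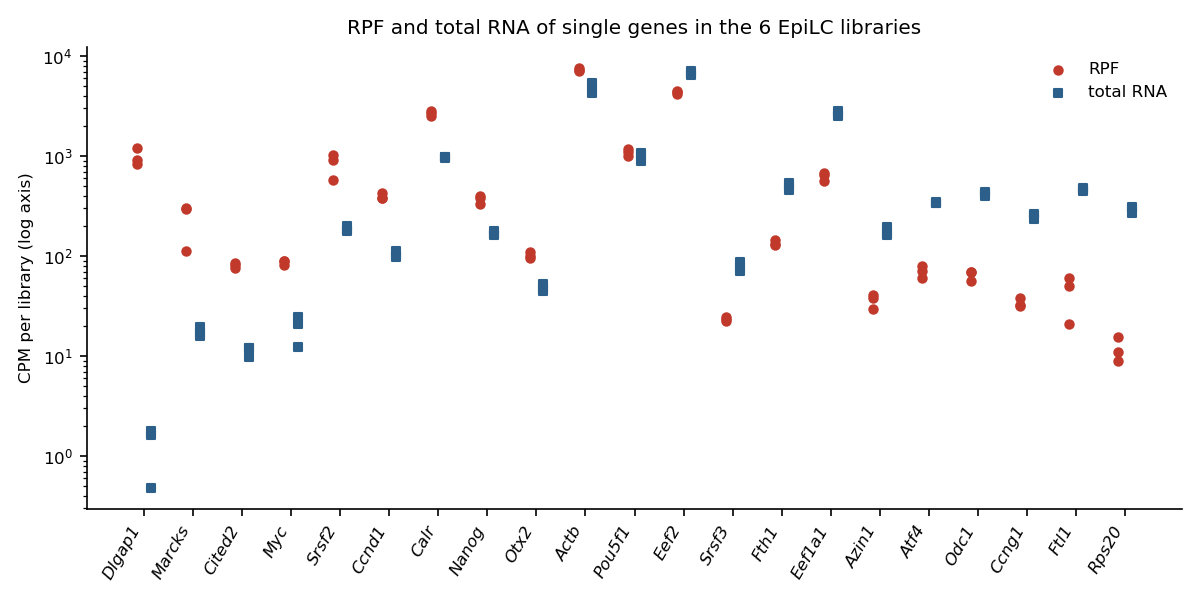
CPM per library (y axis, log scale) of 21 genes in the 3 RPF (red circles) and 3 total RNA (blue squares) libraries of EpiLCs, ordered from the highest to the lowest log2 ratio. Dlgap1 lies near 1000 CPM in RPF and under 2 CPM in total RNA, Pou5f1 overlaps between the assays, and Rps20 has 8.95 to 15.5 CPM in RPF and 273 to 313 CPM in total RNA.

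Upstream start codons are the known device of mRNAs that respond to the integrated stress response, in which phosphorylated eIF2 lowers initiation. Of 14 such genes 6 were lower and 1 was higher, against 14.4% and 9.42% of all genes. The class median was -0.51, with -0.53, -0.18 and -0.59 in replicate numbers 1 to 3. Without RPF replicate 3 the fitted median was -0.27. Atf4 (chromosome 15, 80256344 to 80257460), the transcription factor that the response induces, had 79.9, 70.9 and 61.0 CPM in RPF and 346, 342 and 343 CPM in total RNA. The assays were well apart, and the log2 ratio was -2.25 ± 0.10 (limma adjusted p 3.25e-15). Ppp1r15a, a phosphatase subunit that reverses the response, had 5.78, 10.1 and 3.69 CPM in RPF and 30.1, 35.5 and 32 CPM in total RNA (-2.46 ± 0.26). Ppp1r15b (-1.78), Ifrd1 (-1.6), Ddit3 (-1.56) and Ibtk (-1.29) were lower as well. Cebpb was the higher one, at 1.08 ± 0.16. The Atf4 transcript of Gencode M21 has 3 ATGs before its start codon, which is at chr15:80256299-80256301 on the plus strand. The sites are shown because they carry the best known case of this control, each with 12 bases before and 6 after, where capitals mark the base at position -3, the ATG and the base at +4, counted from the A of the ATG as +1.
Atf4 upstream ATG 1: cacttttctCtcATGGggcct
Atf4 upstream ATG 2: cttgcggccAccATGGcgtat
Atf4 upstream ATG 3: ccggcctaaGccATGGcgctc
Atf4 start codon: aagccccacAacATGAccgag
The second upstream reading frame has 3 codons and ends before the start codon. The third has 59 codons and runs 83 nt into the coding sequence in another frame. In Ppp1r15a the last of 7 upstream ATGs also opens a frame, of 50 codons, that runs 76 nt into the coding sequence.

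Polyamine genes were low too. Of 9 kept genes 4 were lower and 0 higher, against 14.4% and 9.42% of all genes, with a median of -0.90. The filter admitted 1 of the 9 through 1 assay alone. Among the 6 with 3 CPM in all 6 libraries, 2 were lower and 0 higher, against 12.2% and 8.65% of genes at that level. The median share of 29-mers repeated in other genes was 47.4% over the class. Of the 3 members with at most 5% repeated, 1 was lower. Odc1, ornithine decarboxylase, the rate-limiting enzyme of polyamine synthesis, had 56.6, 69.0 and 69.6 CPM in RPF and 435, 399 and 428 CPM in total RNA, a log2 ratio of -2.66 ± 0.10 (limma adjusted p 2.35e-16). Azin1, which protects Odc1 from its antizyme, had 41.1, 29.8 and 37.9 CPM in RPF against 164, 197 and 172 CPM in total RNA (-2.19 ± 0.13). Oaz2 (-2.22) and Sat1 (-1.47) were the others, and Srm, spermidine synthase, was highest at 0.07 ± 0.09. Oaz1, the main antizyme, had 6.65 to 10.7 CPM in RPF and 14.6 to 19.1 CPM in total RNA and stayed within the fold limit (-0.91 ± 0.24).

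The start codons of genes at both ends of the range are printed to show how far their immediate context differed, with the same capitals, from the Gencode M21 transcripts on GRCm38. Genes with a high ratio come first.
Marcks (chr10:37138533-37138535, minus strand, log2 ratio 3.66): gaagaagccAgcATGGgtgcc
Cited2 (chr10:17723946-17723948, plus strand, 2.87): tcaggactgGaaATGGcagac
Srsf2 (chr11:116852927-116852929, minus strand, 2.15): cgcttcgcaGccATGAgctac
Ccnd1 (chr7:144939691-144939693, minus strand, 1.98): gacggccgcGccATGGaacac
Calr (chr8:84846796-84846798, minus strand, 1.5): cctcggcccGccATGCtcctt
Those with a low ratio follow.
Ccng1 (chr11:40754066-40754068, minus strand, -2.82): gtggctgtcAagATGAtagaa
Odc1 (chr12:17547299-17547301, plus strand, -2.66): acatcgagaAccATGAgcagc
Ppp1r15a (chr7:45525380-45525382, minus strand, -2.46): tagcccagaCacATGGccccg
Azin1 (chr15:38501503-38501505, minus strand, -2.19): aatacggctGagATGAaagga
Eif4g2 (chr7:111081545-111081547, minus strand, -1.72): caagccgccAaaGTGGagagt
All of these start sites except that of Ppp1r15a have a purine at -3, and the annotated start codon of Eif4g2 is GTG. These genes were picked for their ratios, so they do not measure the effect of context. Over 10833 genes with an annotated ATG start, those with a purine at -3 and G at +4 (46.6% of genes) had a median of 0.04 relative to all genes, and those with a purine and another base at +4 had 0.02. With a pyrimidine at -3 the median was -0.16 with G at +4 and -0.19 without, and over the 498 genes with T at -3 it was -0.27 (SD 0.02 over replicate numbers, n = 3).

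Translation factors lay on both sides, with 4 of 41 higher and 5 lower (median 0.34), close to the 9.42% and 14.4% of all genes. Eif4g2, a relative of eIF4G that lacks the cap-binding part, had 654, 653 and 672 CPM in RPF and 2215, 2397 and 2191 CPM in total RNA, a log2 ratio of -1.72 ± 0.06 (limma adjusted p 6.16e-17). The helicases Eif4a2 (-1.52) and Eif4a1 (-1.17) and the factors Eif1 (-1.20) and Eif5 (-1.17) were also lower. The share of 29-mers repeated in other genes was 43.1% in Eif4a2, 99% in Eif4a1, 97.8% in Eif1 and 27% in Eif5, and among the 22 factors with at most 5% repeated 3 were higher and 1 lower. Eif4h, which stimulates these helicases, was higher at 1.26 ± 0.07, together with Eif3k (1.13), Eif2b2 (1.10) and Eif2s3x (1.06). Among iron-responsive element mRNAs 3 of 8 were lower. Fth1, the ferritin heavy chain, had 144, 133 and 128 CPM in RPF and 536, 453 and 505 CPM in total RNA (-1.84 ± 0.08). Ftl1, the light chain, had 49.8, 60.8 and 21.1 CPM in RPF and 450, 468 and 478 CPM in total RNA (-3.60 ± 0.18), and the iron exporter Slc40a1 had -2.55 ± 0.23. Tfrc, the transferrin receptor, had a ratio of -0.08 ± 0.08, with 232 to 270 CPM in RPF and 258 to 303 CPM in total RNA. Epas1 was the highest of the 8, at 0.23 ± 0.15. Among the 5 members with at most 5% repeated 29-mers 1 was lower, and their median was -0.08 against -0.45 over the 8.

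Kinesins, polycomb proteins and selenoproteins had medians below that of all genes, while their shares of lower genes were near or below the 14.4% of all genes. Kinesins had 4 of 29 lower and 1 higher (median -0.44), where Kif13a had -1.46 and Kif2c 1.05. Polycomb proteins had 3 of 26 lower and 0 higher (median -0.20). Mtf2, a cofactor of the PRC2 complex, was the lowest of them, with 56.0, 48.5 and 46.4 CPM in RPF and 183, 192 and 200 CPM in total RNA (-1.87 ± 0.11), and Cbx6 was highest at 0.85 ± 0.19, within the fold limit. Selenoproteins, which read UGA as selenocysteine, had 2 of 19 higher and 3 lower (median -0.14). Selenos stood at 1.42 and Sephs2 at -1.92. Gpx4 had -0.79 ± 0.22, within the fold limit, with 90% of its 29-mers repeated in other genes. Of 70 protocadherin genes 10 passed the filter and 2 were lower, Pcdhga1 (-1.57) and Pcdhga8 (-1.34). These genes share exons, so their counts are uncertain. Pcdhgc3 was at -0.15 and Pcdh1 at 0.60. Of 13 coding genes of the mitochondrial genome 7 passed, with 3 lower and 1 higher. Their median was -0.39, -1.73 and -0.21 in replicate numbers 1 to 3, with replicate 2 far below the others. mt-Nd1 was lowest, with 241, 180 and 207 CPM in RPF and 840, 1181 and 693 CPM in total RNA (-1.99 ± 0.14), and mt-Nd6 was highest at 1.02 ± 0.20, with total RNA replicate 2 (97.6 CPM) inside the RPF range of 78.7 to 111 CPM.

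Cytosolic ribosomal proteins had the lowest median of the 32 classes, -1.01 (SD 0.10, n = 3). Of 53 kept genes 27 were lower and 4 higher, against 14.4% and 9.42% of all genes. In the deposited counts 79 were listed, of which 26 did not pass the filter. Among the 43 with 3 CPM in all 6 libraries, 25 were lower and 1 higher. Rps20 (chromosome 4, 3834501 to 3835249) had 15.5, 8.95 and 11.1 CPM in RPF and 273, 313 and 300 CPM in total RNA (-4.54 ± 0.19, limma adjusted p 2.14e-15). Rpl13 (-4.10), Rpl35 (-3.98) and Rpl26 (-3.63) were also among the 10 lowest called genes with a mean of at least 10 CPM, and Rpl32, at 149 to 228 CPM in RPF and 621 to 710 CPM in total RNA, stood at -1.80. The higher genes were Rps7 (3.61), Rpl10 (2.95), Rpl5 (2.10) and Rplp2. Rps7, Rpl10 and Rpl5 each had at most 2.75 CPM in total RNA. The filter therefore admitted them through RPF alone, which fixed their ratios to be high. Rplp2, a protein of the ribosomal stalk, had 1388, 1217 and 1646 CPM in RPF and 604, 456 and 683 CPM in total RNA (1.35 ± 0.10). Other TOP mRNAs had 5 of 16 lower and 1 higher (median -0.50). The elongation factor Eef1a1 had 565, 682 and 645 CPM in RPF and 2797, 2615 and 2524 CPM in total RNA (-2.03 ± 0.07). The poly(A)-binding protein Pabpc1 stood at -1.25 ± 0.07 and Eef2 at -0.58 ± 0.05, the latter within the fold limit, with 4216 to 4515 CPM in RPF and 6406 to 7142 CPM in total RNA. Tpt1 did not pass the filter. Hnrnpa1 was the higher one at 1.73 ± 0.17.

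Many of these genes have near copies elsewhere in the genome, and the deposited counts hold reads with a single mapping position. Footprint reads were 26 to 32 nt long and total RNA reads at least 32 nt, and a shorter read more often has several positions. As a measure of this, the share of counted 29-mers of each gene that occur in another annotated gene was computed, with 50-mers for longer reads. Copies outside annotated genes were not searched. The median share of repeated 29-mers was 92.9% over the 53 ribosomal proteins, and 1 of them had at most 5%. It was 51.9% over the other TOP mRNAs. With 50-mers the median shares were 84.8% over the ribosomal proteins and 32.7% over the other TOP mRNAs, and Rpl13 had 100% at both lengths. For single genes the share of repeated 29-mers was 95.1% in Rps20, 100% in Rpl13, 88.6% in Eef1a1, 53.3% in Pabpc1, 83.2% in Odc1, 87.9% in Ftl1, 93.8% in Srsf3 and 90.7% in Oaz1. It was 100% in Rps7, Rpl10 and Rpl5. In contrast, it was 0% in Atf4, Azin1, Ppp1r15a, Ccng1, Dicer1, Marcks, Cited2, Myc and Dlgap1. Over all genes, the 333 with more than 75% repeated 29-mers had a median of -0.56 relative to all genes, with 36.0% lower and 13.8% higher, while the 7980 with 0% had a median of 0.03, with 12.2% lower and 9.26% higher. Its part in the low ratios of the ribosomal proteins, and in those of the other genes with high shares, was not tested.

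**Figure D3:**
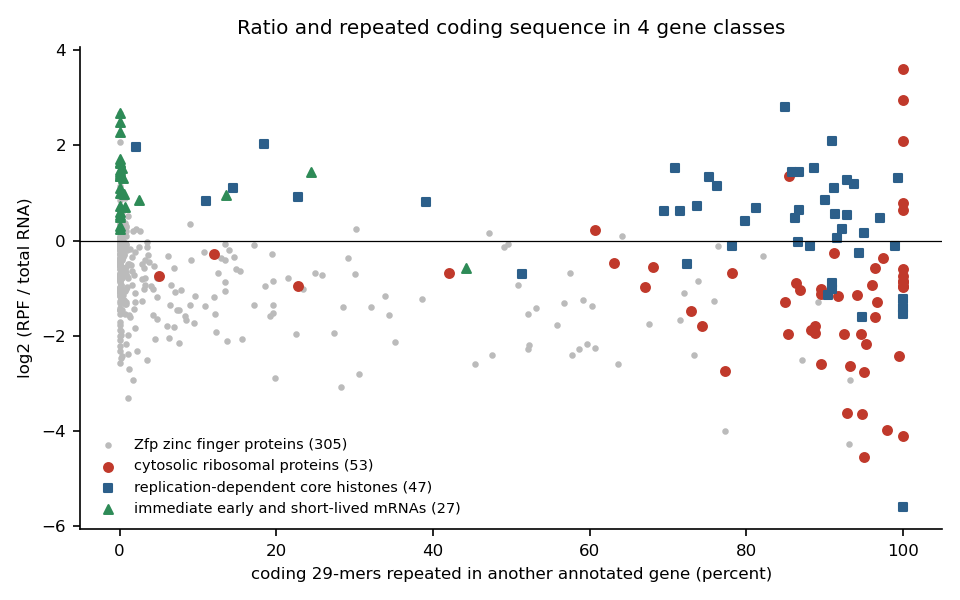
Log2 ratio of RPF to total RNA (y axis) against the percentage of counted coding 29-mers that occur in another annotated gene (x axis) for 4 classes, where each point is a gene and the number of genes is in brackets. Most ribosomal proteins (red) and core histones (blue) lie above 75%, and immediate early genes (green) lie near 0%.

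Among the 9456 genes with at most 5% of repeated 29-mers, a limit chosen after the data had been seen, 867 (9.17%) were higher and 1240 (13.1%) lower. In that set 15 of 24 immediate early genes were higher and 0 lower, 8 of 21 pluripotency regulators were higher and 0 lower, 10 of 27 microRNA and P-body genes were lower and 0 higher, and 5 of 12 stress response genes were lower and 1 higher. Of 209 Zfp genes 62 were lower and 3 higher, and their median was -0.54, against -0.74 without the limit. The 10 lowest ratios under the naming rule then belonged to BC005537, Zbtb26, Dsel, Zfp329, Nsmf, Map3k10, Vps54, Usf3, Wbp1 and Rev3l. Nsmf, at 2.03 to 2.89 CPM in RPF, was admitted through total RNA alone, so the filter fixed its ratio to be low. Zbtb26 and Wbp1 reached 3 CPM in only 1 RPF library each. Of the 10, BC005537 was also among the 10 lowest under the naming rule without the limit. It had 4.96, 4.85 and 6.47 CPM in RPF and 83.5, 77.6 and 88.5 CPM in total RNA (-3.84 ± 0.24, limma adjusted p 1.67e-12), and its annotated 5′ leader holds 19 ATGs. Rev3l, the catalytic subunit of the translesion DNA polymerase zeta, had 17.1, 15.7 and 13.5 CPM in RPF and 118, 145 and 130 CPM in total RNA (-3.01 ± 0.17), and Vps54, a tethering factor of the Golgi, had 19.8 to 24.4 and 180 to 196 CPM. RPF was below total RNA in every library for all 3. Snrpd3, a core protein of the spliceosome, was among the 10 highest of this set, with 838, 753 and 793 CPM in RPF and 122, 128 and 122 CPM in total RNA (2.74 ± 0.07).

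Replication-dependent core histones have mRNAs that end in a stem-loop in place of a poly(A) tail. Of 47 kept genes 15 were higher and 7 lower, against 9.42% and 14.4% of all genes, with a median of 0.63 (SD 0.08, n = 3). Hist1h2af was highest, with 269, 248 and 221 CPM in RPF and 36.2, 38.6 and 35.0 CPM in total RNA (2.80 ± 0.10). Hist1h2bk was the lowest with a mean of at least 10 CPM (-1.61 ± 0.16), and Hist2h3b, lower still, had 3 RPF counts in all. Their median share of repeated 29-mers was 88.1%, and the single gene at most 5%, Hist4h4, had 822, 845 and 709 CPM in RPF and 234, 169 and 213 CPM in total RNA (1.98 ± 0.09). Glycolysis enzymes (median 0.67, 4 of 17 higher and 2 lower) and actins and tubulins (median 0.60, 1 of 14 higher) also held genes with copies. Of all genes 9.42% were higher and 14.4% lower, so the 7.14% of actins and tubulins was below the share of all genes. The filter admitted 2 glycolysis genes through 1 assay alone. Among the 14 glycolysis genes with 3 CPM in all 6 libraries, 3 were higher and 0 lower, against 8.65% and 12.2% of genes at that level. Gapdh, admitted through RPF alone and with 100% of its 29-mers repeated, had 3.33 to 4.34 CPM in RPF and 0.583 to 1.62 CPM in total RNA, while Tpi1, at 36.9%, had 873 to 882 and 346 to 363 CPM (1.37 ± 0.06), and Pfkp stood at -0.04 ± 0.13. Tubb4a was the called one at 1.28 ± 0.14, and Actg1 the lowest at -0.92 ± 0.35. Actb stood at 0.65 ± 0.06, with 7142 to 7605 CPM in RPF and 4255 to 5401 CPM in total RNA. Among the genes that the filter admitted through total RNA alone, Gm2000, Rpl13a-ps1 and Chchd2 had the lowest ratios, which the filter fixed to be low. The pseudogene Rpl13a-ps1 had 4 counts in RPF and 660 in total RNA over 3 libraries each, a CPM ratio 72.6-fold lower in RPF (exact 95% interval 28.2 to 267, counting error only). Gm2000 had 3 and 620 counts and was 90.9-fold lower (31 to 442). Chchd2, below the mean of 10 CPM that the naming rule asks for, had 0 RPF counts and was at least 25.2-fold lower. Also among the 10 lowest under the naming rule was 1810022K09Rik (-3.58).

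Transcript features were set against the ratio across genes, which are not independent replicates, so no test was made. Spearman's rank correlation with the counted coding length was -0.40 over 11139 genes, and -0.40, -0.38 and -0.37 in replicate numbers 1 to 3. Genes were cut into 5 groups of equal size by this length. In the group with the shortest counted sequence (108 to 780 nt), 22.9% were higher and 7.68% lower, with a median of 0.47. In the group with the longest (2639 nt or more), 1.26% were higher and 26.4% lower, with a median of -0.51. The rank correlation with the number of ATGs in the annotated 5′ leader was -0.28 over 10943 genes. The median was 0.23 for 5293 genes without such an ATG, -0.11 with 1, -0.28 with 2, -0.38 with 3 to 5, and -0.55 for 612 genes with 6 or more. The number of upstream ATGs separated genes within each length group. In the shortest group the medians were 0.54 with 0 ATGs, 0.36 with 1 to 2 and 0.28 with 3 or more, and in the longest group -0.24, -0.64 and -0.79. In the longest group 39.6% of the genes with 3 or more upstream ATGs were lower, against 12.2% of those with none. At any length, Cnot7, with 16 upstream ATGs, and Dicer1 and Drosha, with 6 each, had low ratios, whereas Egr1, with 11, and Zfp36, with 5, had high ratios. These genes were picked, so they do not measure the relation. GC content of the coding sequence had a rank correlation of 0.27, with 0.23, 0.36 and 0.23 by replicate number, so replicate 2 stood apart in this measure. The rank correlation was -0.17 for the length of the 5′ leader, -0.13 for the length of the 3′ UTR and -0.09 for the GC content of the leader, and 0.08 for the level of total RNA per length (RPKM).

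**Figure D4:**
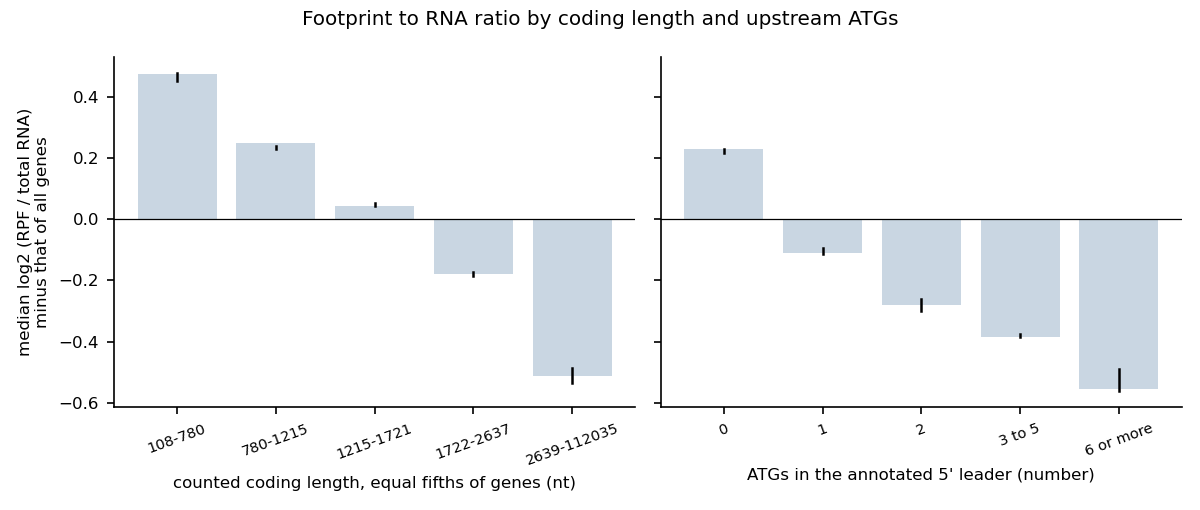
Median log2 ratio of RPF to total RNA minus that of all genes (y axis) by 5 equal groups of counted coding length in nt (left) and by the number of ATGs in the annotated 5′ leader (right). Bars are the fitted medians and black lines span the 3 replicate numbers. The median goes from 0.47 to -0.51 with length and from 0.23 to -0.55 with upstream ATGs.

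The ESC libraries, which share no sample with the EpiLC libraries, gave much the same order. Spearman's rank correlation of the log2 ratio between the cell types was 0.904 across 11139 genes, and 1877 of the 2652 genes called in EpiLCs were called in the same direction in ESCs, where 2357 genes were called in all, 7.67% higher and 13.5% lower. The class medians in ESCs were 1.08 for immediate early genes, -1.28 for ribosomal proteins, -0.67 for Zfp genes, -0.56 for microRNA and P-body genes and 0.57 for pluripotency regulators. The ratio itself changed between the cell types in 44 genes (0.395%), 32 higher and 12 lower in EpiLCs, by the limma interaction of assay and cell type at the same thresholds. These counts rested on single libraries, with 15 (without EpiLC RPF replicate 2) to 53 (without ESC total RNA replicate 1) higher and 6 to 22 lower (without RPF replicate 3 of EpiLCs and of ESCs) when each was left out. In the 32 classes the changed genes were Rplp2, Eif4a1, Col2a1 and Pcdhga8, which were higher in EpiLCs, and Zfp979 and Hist1h2ba, which were lower. Rplp2 had a log2 ratio of 1.35 in EpiLCs and 0.23 in ESCs, and the interaction, fitted over all 12 libraries, was 1.2 ± 0.14 (limma adjusted p 3.77e-05), and Eif4a1 had -1.17 and -2.34, with an interaction of 1.25 ± 0.25 (adjusted p 0.0089). Of all 29-mers, 85.5% were repeated in Rplp2 and 99% in Eif4a1, and its part in the change was not tested.

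**Figure D5:**
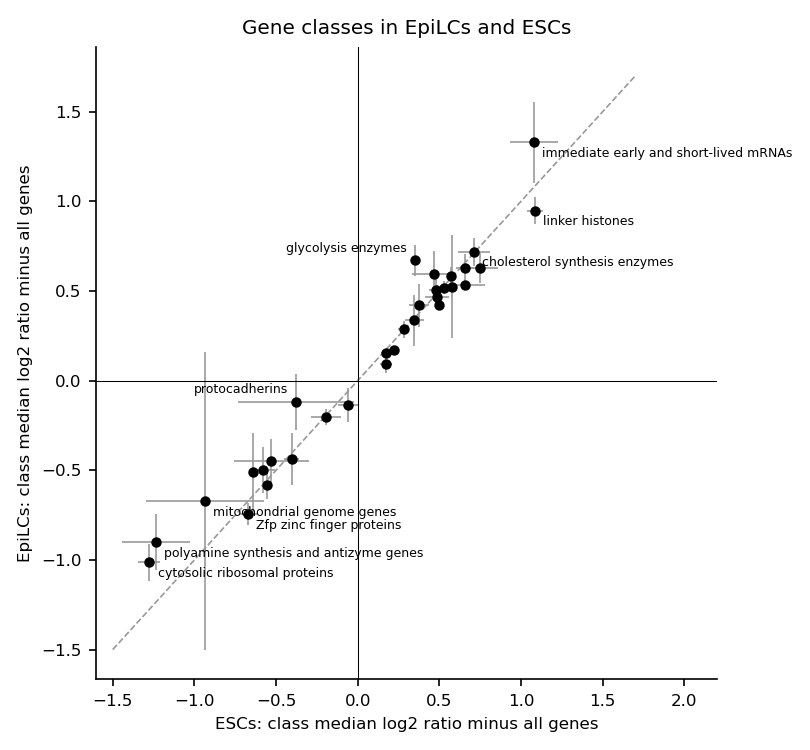
Class medians of the log2 ratio minus all genes in ESCs (x axis) and EpiLCs (y axis), with bars of 1 SD over 3 replicate numbers and a dashed line of equality. The 32 classes follow the line, with immediate early genes at 1.08 and 1.33 and cytosolic ribosomal proteins at -1.28 and -1.01.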

How the data were processed

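RPF and total RNA of EpiLCs and ESCs were sequenced with the TruSeq Ribosome Profiling kit, 3 libraries per group, grouped and numbered by their titles. For all 12 libraries the authors deposited a table of raw counts with the counted length of each gene. Per the methods and the submitters' processing notes, adapters were trimmed with cutadapt 1.14, reads of 26 to 32 nt (RPF) or at least 32 nt (total RNA) with 1 mapping position were kept with STAR 2.5.3a on mm10, and 5′ ends were counted with featureCounts 1.5.3 on coding sequence without its first 45 nt. Lost short reads from repeated sequence can lower RPF more than total RNA. How PCR duplicates were treated is not given in the sources used here, so intervals and floors cover counting error only.

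Here, counts were scaled with TMM (edgeR 4.0.16) and fitted with voom and limma 3.58.1 (R 4.3.3) over the 6 EpiLC libraries, without a replicate block, 2-sided. The study names limma and the thresholds, and voom and TMM were chosen because the values are counts. Gene coordinates (mm10) span the counted bases. Symbols matched 22385 of 22462 genes. Leaders, start sites, GC content and repeated 29-mers came from Gencode M21 transcripts (GRCm38), a later release than the one counted on. Of the genes kept, 134 share counted bases with another gene. CPM with a prior count of 0.5 gave the ratios per replicate number.

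The members, lists and tests were chosen with earlier results of these data known. Genes named are the 10 highest and 10 lowest called genes with a symbol, a mean of at least 10 CPM, no shared base and 1 sign in all 3 same-numbered pairs. Added to them are the highest and lowest member of each list at that level and a fixed list of 25 genes. Other members, mostly those called, and genes shown for low repeat shares were named after their values were seen. A few genes that the rule names are not reported here. In simulated data of the 11139 genes, 197 of 200 genes changed by 1.5 on the log2 scale were recovered with 0 false calls. At a change of 2 it was 199 with 4 false calls, and at a change of 3 it was 200 with 2. Each gene was drawn around its mean over both assays, and unchanged genes had no difference between the assays. Every planted change exceeded the fold limit of 1, so these counts give no error rate for the genes called in the data. Same-group libraries differed by 2.53 to 5.93 chi-square units per degree of freedom, so none were alike within sampling noise. Alternatives were edgeR, DESeq2 1.42.0, other scalings and filters, the block, all 12 libraries, and each library left out.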

Additional observations from a re-analysis of the deposited data

Results flagged for a closer look

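Of the 99 genes that the naming rule gives, 12 passed a limma adjusted p below 0.05 for the interaction of assay and cell type, with no fold limit, against 247 of all 11139 genes (2.22%). Many of the 99 were named for an extreme EpiLC ratio, and the same EpiLC libraries enter the interaction, so its direction is not independent of that choice. All values are changes of the log2 ratio, EpiLC minus ESC, with the SE. Of these 12, only Rplp2 was past the fold limit of 1, at 1.2 ± 0.14. Among mRNAs of the translation machinery, Eef2 differed by 0.58 ± 0.07 (adjusted p 3.77e-05), Pabpc1 by 0.72 ± 0.10 (0.000241), Eef1a1 by 0.44 ± 0.10 (0.0189) and Eif4h by 0.38 ± 0.10 (0.0379), so these ratios were higher in EpiLCs. Lower in EpiLCs were the ferritin heavy chain gene Fth1, by -0.63 ± 0.11 (0.00251), the PRC2 cofactor Mtf2, by -0.72 ± 0.12 (0.00251), and Ccng1, by -0.64 ± 0.16 (0.0321). Ccnd1 differed by 0.52 ± 0.13 (0.0321), Dnmt3b by 0.67 ± 0.17 (0.0358), Kif2c by 0.38 ± 0.10 (0.0361) and Sparc by 0.37 ± 0.10 (0.0443). The cause of these differences was not tested.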

How the results depend on the processing

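The counts of genes called within EpiLCs stayed within 1.5 times under every test, scaling, filter and left-out library, and moved only without the fold limit, to 3618 higher and 3753 lower. Other fits gave 919 higher and 1733 lower with total counts, and 1399 and 2026 with every gene that had a count. Same-numbered RPF and total RNA libraries showed little common deviation, with correlations of 0.055, -0.030 and 0.063. Libraries of unlike number gave -0.108 to 0.062. With 3 libraries per assay, these values cannot show whether the numbers pair the samples. The study describes its total mRNA as matched to the footprints. With the replicate block 1062 genes were higher and 1565 lower within EpiLCs, and 56 genes had a higher ratio in EpiLCs than in ESCs, against 32 without it. DESeq2 gave 23 lower genes between the cell types, against 12. When each library was left out in turn, 1010 to 1137 genes were higher and 1574 to 1632 lower within EpiLCs, while between the cell types 15 (without EpiLC RPF replicate 2) to 53 (without ESC total RNA replicate 1) were higher and 6 to 22 lower (without RPF replicate 3 of EpiLCs and of ESCs).

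Of the class medians, core histones gave 0.53 with every gene counted and 1.97 with at most 5% of repeated 29-mers, where 1 gene was left. Stress response genes gave -0.25 at a mean of at least 10 CPM. MicroRNA and P-body genes gave -0.67 with every gene. Zfp genes gave -0.60 with 3 CPM in all libraries, -0.87 with every gene, -0.64 at 10 CPM and -0.54 with few repeats. Ribosomal proteins gave -1.16 with 3 CPM in all libraries, -0.83 with every gene, -1.16 at 10 CPM and -0.75 with few repeats, again 1 gene. With each library left out, medians were 0.48 to 0.90 for pluripotency regulators, 0.52 to 0.72 for core histones and -0.64 to -0.27 for stress response genes. Signs turned for nucleoporins, to -0.0068 with every gene, and for protocadherins, to 0.12 with 3 CPM in all libraries, 0.22 at 10 CPM and 0.013 without RPF replicate 3, the upper end of a range from -0.12. The range between the quartiles was 2.16-fold with 3 CPM in all libraries and 2.58-fold with every gene. The rank correlation with length was -0.43 with 3 CPM in all libraries, -0.44 at 10 CPM and -0.45 with few repeats, and that with upstream ATGs -0.30 at 10 CPM and -0.30 with few repeats. Why these values shifted was not tested. Selenoproteins went to -0.25 without RPF replicate 2. Among the named genes, no called ratio changed sign in any of these fits that kept the gene, and 11 of their values were no longer called. The depth of RPF, where 3 counts averaged 0.764 CPM, limits the ratios of low genes most.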
